A study of Macaca mulatta with 6 samples.

Results

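miR-199a and miR-214 are small regulatory RNAs of connective tissue and other mesenchymal cells. They were followed here in whole testis of juvenile rhesus monkeys with and without gonadotropin. Members were the rows of the mature miRNA count table whose name, without species prefix and arm suffix, is miR-199a, miR-199b or miR-214. This gave 5 of 701 rows, named miR-199a, miR-199a-5p, miR-199a-3p, miR-214-5p and miR-214-3p, with 0 rows for miR-199b. miR-199a and miR-199a-5p had equal counts in all 6 libraries, so the 5 rows hold 4 separate measurements, and the pair is described once as miR-199a-5p. The precursor genes of the same names in a second table of small RNA gene counts, 4 of 3083 genes, served as another count of the same libraries. They were mir-199a-1, mir-199a-2, mir-214 and a gene without a name in that table, whose identifier (ENSMMUG00000046294) is paired with MIR199B in the gene name table.

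All 6 animals were wild type and received pulses by infusion for 48 h. The 3 vehicle animals (numbers 7, 9 and 11) were 24, 14 and 15 months old, and the 3 gonadotropin animals (numbers 8, 10 and 12), given FSH and LH, were 22, 14 and 15 months old. Each library came from the right testis of 1 animal, in which all cell types are mixed, so fewer cells of a type and less RNA per cell cannot be told apart. The labels name both an Ion Torrent small RNA assay and an Illumina total RNA kit, and no sequencing batch.

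An miRNA is cut from a hairpin precursor whose 5′ and 3′ sides give the 5p and 3p arms. Either arm can be loaded into an Argonaute protein, where its seed pairs with messenger RNAs and lowers their output. In mammals miR-214 and a copy of miR-199a are made from DNM3OS, a long non-coding RNA that runs opposite to the dynamin gene DNM3 and is activated by the transcription factor TWIST1 in mesenchyme. A further copy of miR-199a lies in DNM2 and miR-199b in DNM1. The family is best known for its part in skeletal development and fibrosis. In the testis, peritubular and interstitial cells are of mesenchymal kind.

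The positions of the precursors are given with the numbers of the 2 miR-199a copies as this species has them. On rheMac8, mir-199a-1 (ENSMMUG00000027103) lies on chromosome 1 at 195411983 to 195412092 and mir-214 (ENSMMUG00000026913) on chromosome 1 at 195417710 to 195417819, both on the plus strand and 5617 bases apart. The other copy, mir-199a-2 (ENSMMUG00000026921), lies on the minus strand of chromosome 19 at 10858564 to 10858634. MIR199B lies on the plus strand of chromosome 15 at 10637117 to 10637226. On rheMac2, the build of the miRNA table, mir-214 is at 201833014 to 201833123 and mir-199a-1 at 201838740 to 201838849 of chromosome 1, with 5616 bases between them. In the RefSeq gene table (assembly T2T-MMU8v2.0) the span of DNM3 and that of a long non-coding RNA, LOC144340355, hold both MIR214 and MIR199A-1, and the span of DNM2 holds MIR199A-2. DNM3OS and MIR199B were not matched there by name, so the link to DNM3OS and to DNM1 rests on background knowledge.

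Libraries held 1100190 to 1747355 counts of mature miRNAs and 2146412 to 3170784 counts of small RNA genes. Markers of testis (miR-506 to miR-514a, 10 rows tested) summed to 34726 to 51577 CPM (reads of a row relative to the size of its library, after trimmed-mean (TMM) scaling between libraries). The muscle list had 1 tested row, miR-1-3p, at 20.8 to 40.7 CPM. It leaves out miR-143-3p and miR-145-5p, listed below as stromal, with vehicle means of 10718 and 24691 CPM. Markers of epithelium (6 rows tested) stayed at 92.8 to 239 CPM. Meiotic germ cell markers (2 rows tested) stood at 12.1 to 98.9 CPM. For gonadotropin against vehicle, 1 of 433 tested miRNA rows and 1 of 717 tested small RNA genes passed the edgeR quasi-likelihood test, which compares the groups with 1 model over all rows of a table. Neither was a member. Vehicle 7 stood apart from the other libraries in the miRNA table (14.77 on the principal component with 47.5% of the variance, others -6.90 to 2.54). In the small RNA gene table gonadotropin 10 did so on the second component (22.17 with 30.7% of the variance, others -8.18 to -1.71). Without vehicle 7 the log2 fold changes of the arms were -0.03 for miR-199a-3p, 0.13 for miR-199a-5p, -0.03 for miR-214-3p and 0.29 for miR-214-5p. Without gonadotropin 10 those of the genes were 0.11 for each miR-199a copy, -0.05 for MIR199B and 0.05 for mir-214. Vehicle 7 also lay at the end of the first component of the gene table (20.73, others -15.56 to 4.93), and without it the 4 genes had log2 fold changes of 0.21 to 0.27. The values with all libraries follow.

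The miR-199a and miR-214 arms were abundant in every library, and no difference between gonadotropin and vehicle passed the test. The 4 distinct rows together made 3.70, 5.16 and 3.99% of all miRNA counts in vehicle 7, 9 and 11, and 5.60, 5.49 and 4.79% in gonadotropin 8, 10 and 12. The total of all counts holds those of miR-199a-5p again as row miR-199a, which lowers each share. The groups overlapped in this share, since vehicle 9 lay above gonadotropin 12. After scaling, the vehicle libraries held a sum of 44098, 54598 and 41168 CPM and the gonadotropin libraries 49521, 51439 and 44572 CPM, again with overlap.

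Within each library the arms kept nearly 1 order of abundance. miR-199a-3p ranked 7 to 13 of the 701 rows, miR-199a-5p 9 to 26, miR-214-3p 28 to 51 and miR-214-5p 69 to 93. The duplicate row miR-199a is counted in these ranks. The shallowest values behind them were 25468, 15878, 6025 and 1438 counts. The levels are per row and not corrected for length, and mature miRNAs are of nearly equal length. The exception to the order was gonadotropin 8, in which miR-199a-5p reached the level of miR-199a-3p.

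miR-199a-3p, known to repress MTOR and MET, was the most abundant member. Vehicle 7, 9 and 11 held 24899, 27522 and 21724 CPM, and gonadotropin 8, 10 and 12 held 20486, 27381 and 23822 CPM. The highest and the lowest library belonged to different groups and the ranges overlapped almost fully. Group means were 24715 ± 2903 CPM with vehicle and 23896 ± 3448 CPM with gonadotropin (SD, n = 3 each). The log2 fold change was -0.05 (95% interval -0.66 to 0.57, edgeR adjusted p = 0.961). All 433 tested rows had a median log2 fold change of -0.06, so this arm lay at the median of the table. Its sign turned without vehicle 9 (0.11), without gonadotropin 8 (0.04) and with library totals as scaling (0.20, where the median of all rows was 0.19).

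miR-199a-5p, known to act on DDR1, CAV1 and HIF1A, differed mainly by a single library. The vehicle libraries, in the same order, held 12650, 15344 and 13445 CPM, and gonadotropin 8, 10 and 12 held 20534, 12906 and 13390 CPM. Gonadotropin 8 stood above all others, and the other 2 gonadotropin libraries lay within the vehicle range. The means were 13813 ± 1384 CPM and 15610 ± 4271 CPM (SD, n = 3 each). The log2 fold change of 0.18 (95% interval -0.48 to 0.83, edgeR adjusted p = 0.952) became -0.08 without gonadotropin 8. The endothelial marker miR-126 was also highest in gonadotropin 8, at 11264 CPM against 5534 to 9164 CPM in the other libraries, and its part in the result was not tested.

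miR-214-3p, which is known to target EZH2, varied more between animals than between groups. The vehicle libraries held 5403, 9776 and 4632 CPM and the gonadotropin libraries 6440, 9030 and 5487 CPM. Vehicle 9 and gonadotropin 10 were high and the other 4 libraries were lower, which gave means of 6604 ± 2774 CPM and 6986 ± 1834 CPM (SD, n = 3 each). The log2 fold change was 0.08 (95% interval -0.68 to 0.84, edgeR adjusted p = 0.959). It was 0.55 without vehicle 9, -0.17 without gonadotropin 10, -0.03 without vehicle 7 and -0.05 without vehicle 11, so single libraries set its sign, and upper-quartile scaling gave -0.05.

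miR-214-5p, the less abundant arm of its precursor, had the largest difference among the members. Vehicle 7, 9 and 11 held 1146, 1956 and 1368 CPM, and gonadotropin 8, 10 and 12 held 2062, 2121 and 1872 CPM. The gonadotropin libraries lay close together and above vehicle 7 and 11, but vehicle 9 exceeded gonadotropin 12. Group means were 1490 ± 419 CPM and 2018 ± 130 CPM (SD, n = 3 each). The log2 fold change was 0.44 (SE 0.32, 95% interval -0.26 to 1.13), which the test did not call (edgeR adjusted p = 0.802). Without vehicle 9 the value was 0.75 (edgeR adjusted p = 0.32), and it kept its sign in all 13 alternatives.

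**Figure D1:**
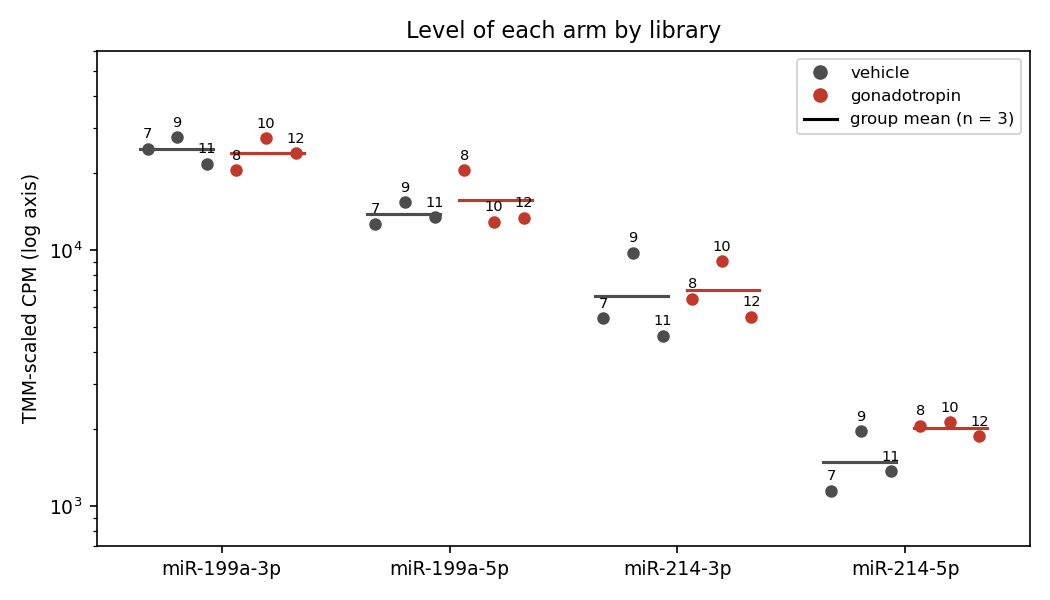
Level of each arm in every library, in TMM-scaled CPM on a log axis; points are libraries with their animal numbers, and bars are the means of 3 libraries. The groups overlap for each of the 4 arms, miR-199a-5p is highest in gonadotropin 8, and vehicle 9 and gonadotropin 10 are the highest libraries for miR-214-3p.

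None of the 5 member rows passed the edgeR quasi-likelihood test, against 0.231% of the tested rows, and 0 had an unadjusted p under 0.05, against 6%. DESeq2 and limma voom called 0 members as well. Of the 4 distinct rows 3 had a log2 fold change above 0, with a median of 0.13, where 46% of all tested rows lay above 0. With library totals 4 of the 4 lay above 0, and with upper-quartile scaling 2 did. In 0 members were the groups apart, against 6.93% of rows apart with higher values in gonadotropin and 4.39% apart with lower values. In the authors' deposited table the log2 fold changes were 0.24 for miR-199a-5p, 0.02 for miR-199a-3p, 0.14 for miR-214-3p and 0.49 for miR-214-5p, with adjusted p-values of 0.96 to 1. Over the 4 arms the 95% intervals reached from -0.68 (miR-214-3p) to 1.13 (miR-214-5p). With 3 animals a group the data do not exclude changes within an arm's own interval. The intervals take no account of the adjustment over all rows, so they are not limits of detection.

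The balance of the 2 arms of a precursor was compared as the ratio of 5p to 3p counts within a library, which needs no scaling between libraries. For miR-199a the ratio was 0.508, 0.558 and 0.619 in vehicle 7, 9 and 11, and 1.00, 0.471 and 0.562 in gonadotropin 8, 10 and 12. In 5 libraries the 3p arm was thus the more abundant, and in gonadotropin 8 the arms were nearly equal, at 25528 counts of 5p and 25468 of 3p. The mean log2 ratio was -0.84 ± 0.14 in vehicle and -0.64 ± 0.57 in gonadotropin (SD, n = 3 each), a difference of 0.20 (two-sided exact permutation p = 0.8, adjusted over 2 precursors 0.8). Without gonadotropin 8 the difference was -0.12. A design of 3 against 3 libraries cannot give a p below 0.1 in this test.

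For miR-214 the ratio was 0.212, 0.200 and 0.295 in vehicle 7, 9 and 11, and 0.320, 0.235 and 0.341 in gonadotropin 8, 10 and 12. The 3p arm was the more abundant in every library, and the groups overlapped because vehicle 11 exceeded gonadotropin 10. The mean log2 ratio was -2.11 ± 0.30 in vehicle and -1.76 ± 0.29 in gonadotropin (SD, n = 3 each). The difference of 0.34 did not pass the two-sided exact permutation test (p = 0.2, adjusted over 2 precursors 0.4), and it ran from 0.24 to 0.52 when any library was left out.

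Arm ratios of 55 precursors, all with both arms tested and a mean count of at least 100 for each arm, gave the setting for these values. For each precursor the log2 ratio in a library was set against its mean in the other 5 libraries. In gonadotropin 8 this deviation was 0.89 for miR-199a, where the median precursor was at -0.12 and the ninetieth percentile at 0.69. The precursors with a higher deviation there were miR-382, miR-31 and miR-29c, named after their values were seen. miR-214 was at 0.35 in gonadotropin 8 and highest in gonadotropin 12, at 0.46 against a median of -0.21. Over all 6 libraries the log2 ratio spanned 1.09 for miR-199a and 0.77 for miR-214, less than the median span of 1.35 over the 55 precursors.

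**Figure D2:**
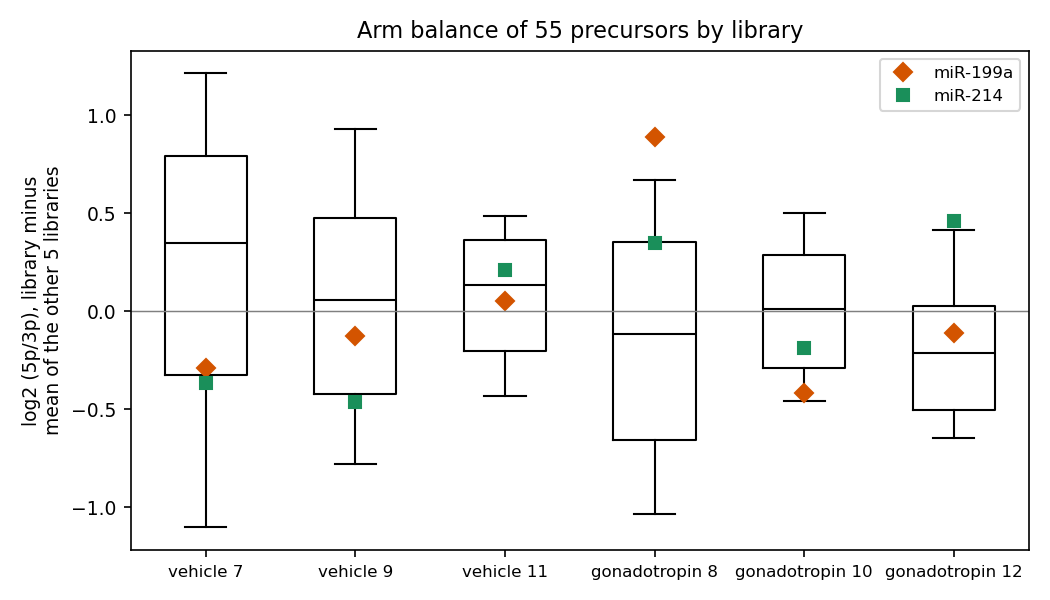
Log2 ratio of 5p to 3p counts in each library minus the mean of the other 5 libraries, for 55 precursors (box: quartiles and median; whiskers reach the outermost precursors between the tenth and ninetieth percentiles). miR-199a lies above the upper whisker in gonadotropin 8 (0.89) and miR-214 above it in gonadotropin 12 (0.46).

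Counted as small RNA genes, the 4 precursors were also abundant, and none passed the edgeR quasi-likelihood test, against 0.139% of all tested genes. mir-199a-1 stood at 20752, 19816 and 18548 CPM for vehicle 7, 9 and 11, and at 20835, 24306 and 21892 CPM for gonadotropin 8, 10 and 12. The groups were apart, but vehicle 7 and gonadotropin 8 nearly met. The means were 19705 ± 1106 CPM and 22344 ± 1779 CPM (SD, n = 3 each). The log2 fold change was 0.18 (95% interval -0.41 to 0.77, edgeR adjusted p = 0.998). mir-199a-2 had the same log2 fold change of 0.18, and the mir-199a-1 count exceeded its count by 0.0654 to 0.661% in each library, so the 2 genes cannot be told apart. They were the members whose groups were apart, 2 of 4 by name, but with nearly equal counts they are not 2 separate measurements. Of all tested genes 4.88% were apart in this direction and 3.35% in the other. Both miR-199a arms overlapped between the groups.

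MIR199B stood at 17420, 15383 and 14796 CPM for vehicle 7, 9 and 11, and at 13275, 20802 and 17434 CPM for gonadotropin 8, 10 and 12. Gonadotropin 8 was the lowest and gonadotropin 10 the highest of all libraries, so the groups overlapped. Gonadotropin against vehicle gave a log2 fold change of 0.11 (95% interval -0.55 to 0.77, edgeR adjusted p = 0.998), which was -0.05 without gonadotropin 10.

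mir-214 stood at 4437, 6431 and 3745 CPM for vehicle 7, 9 and 11, and at 4987, 8092 and 5055 CPM for gonadotropin 8, 10 and 12. As for miR-214-3p, vehicle 9 and gonadotropin 10 were the highest libraries. The log2 fold change was 0.31 (95% interval -0.48 to 1.11, edgeR adjusted p = 0.998), and it was 0.05 without gonadotropin 10. All 4 genes had values above 0, as did 48.1% of all tested genes. They are not 4 separate measurements, since both miR-199a copies had nearly equal counts and miR-199b-3p is known to share the miR-199a-3p sequence. Of the 4 genes 0 had an unadjusted p under 0.05, against 4.46% of all tested genes. DESeq2 and limma voom called 0 of the 4. In the authors' deposited table their log2 fold changes were 0.10 for MIR199B, 0.17 for each miR-199a copy and 0.30 for mir-214, each with an adjusted p of 1.

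**Figure D3:**
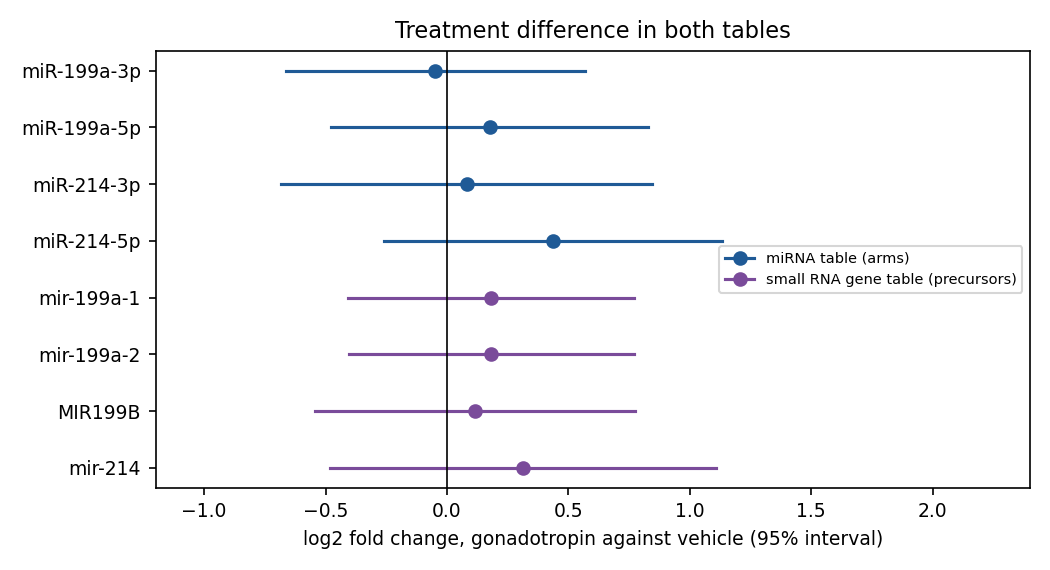
Log2 fold change of gonadotropin against vehicle for the 4 distinct arms and the 4 precursor genes, with 95% intervals from the edgeR quasi-likelihood fit (3 libraries a group). Every interval includes 0, and miR-214-5p lies farthest from it, at 0.44.

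The 2 tables counted the miR-199a reads alike and the miR-214 reads less so. The mir-199a-1 gene count exceeded the sum of miR-199a-5p and miR-199a-3p by 1.07 to 2.15% in each library. With nearly the same count at mir-199a-2, the tables do not show how many came from the copy beside mir-214. The mir-214 gene count was 1.18 to 1.24 times the sum of its arms. From 15.0 to 19.3% of the reads counted to the mir-214 gene, 1561 to 4521 counts a library, were therefore not matched by counts of either listed arm.

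The MIR199B gene count was also larger than the count of miR-199a-3p, whose sequence miR-199b-3p is known to share. The excess was 8736, 8589 and 8739 counts in vehicle 7, 9 and 11, and 7638, 14017 and 9235 counts in gonadotropin 8, 10 and 12. It made 19.0 to 23.6% of the MIR199B count, with no order between the groups. The 2 tables use different genome builds and counting programs, and what these further reads are was not tested.

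**Figure D4:**
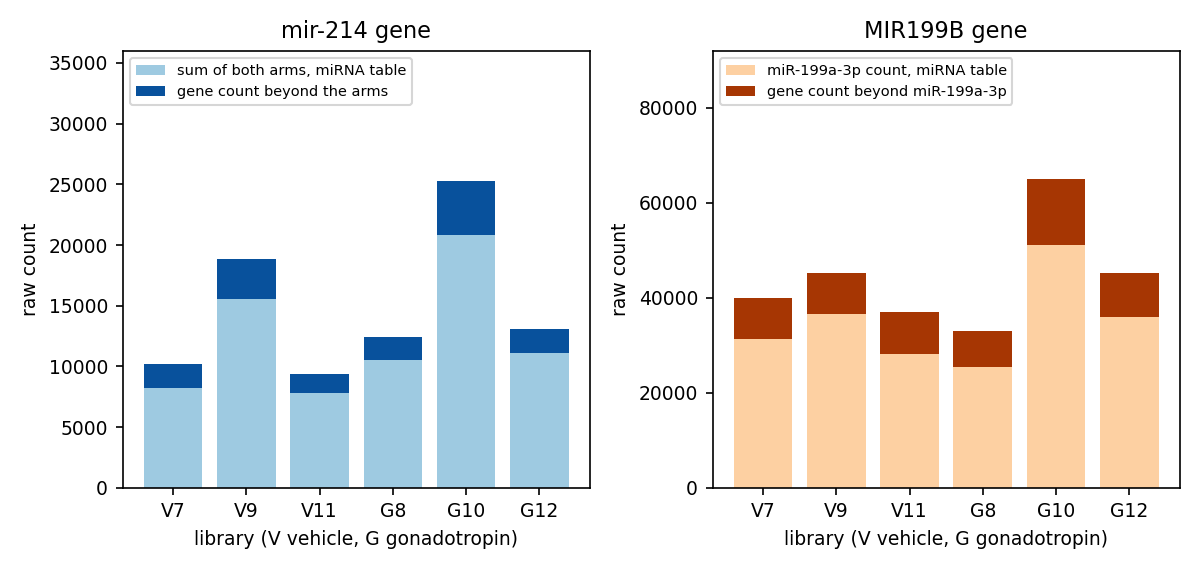
Raw counts of the mir-214 gene (left) and the MIR199B gene (right) in each library, stacked as the part equal to the miRNA table's counts of both miR-214 arms or of miR-199a-3p and the part beyond it. The part beyond the arms is 15.0 to 19.3% of the mir-214 count, and the part beyond miR-199a-3p is 19.0 to 23.6% of the MIR199B count.

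miR-199a and miR-214 did not keep a fixed ratio between animals. miR-199a-3p was 4.61, 2.82 and 4.69 times as abundant as miR-214-3p in vehicle 7, 9 and 11, and 3.18, 3.03 and 4.34 times in gonadotropin 8, 10 and 12. Vehicle 9 had the lowest ratio and vehicle 11 the highest, so the vehicle range held all gonadotropin values. Over genes, mir-199a-1 to mir-214, the ratio ran from 3.00 to 4.95. miR-199a reads can come from more than 1 locus, so this is not a ratio of products of a single transcript.

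The rows whose pattern over the 6 libraries was most like miR-199a-3p were sought by the root mean square difference of log2 CPM, each row centred on its own mean. They were miR-532-3p (0.106), miR-342-5p (0.122) and miR-100-5p (0.126), against a median of 0.456 over all rows. miR-199a-3p itself varied little, with a root mean square of 0.158 around its mean, so rows of low variation are close to it. For miR-214-3p, which varied more (0.396), the nearest were miR-320a (0.164), miR-337-3p (0.204) and miR-493-5p (0.211), against a median of 0.587. The log2 fold changes of these 6 rows lay between -0.22 and 0.48. The rows were chosen on the same 6 libraries, group difference included, so these values are not a separate result.

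Other miRNAs listed here as stromal had values on both sides of 0, and none was called. The cells they came from were not tested. The list of 10 stromal and mesenchymal names gave 17 tested rows, 8 with higher and 9 with lower values with gonadotropin and a median log2 fold change of -0.05, against -0.06 for all rows. By the edgeR quasi-likelihood test 0 passed and 0 had an unadjusted p under 0.05. Those with the smallest p were miR-424-5p (-0.84, SE 0.42), which is also the most abundant of the list, miR-21-5p (0.58, SE 0.29) and miR-21-3p (0.98, SE 0.59). For miR-21-5p the groups were apart with higher values in gonadotropin, as for 6.93% of all tested rows. They overlapped for miR-424-5p and miR-21-3p. Without vehicle 7 the value was -0.42 for miR-424-5p and 1.81 for miR-21-3p, and without gonadotropin 8 it was 0.34 for miR-21-5p and 0.55 for miR-21-3p. The summed level of the list was 157202 to 218528 CPM in vehicle and 122376 to 176960 CPM in gonadotropin, with overlap. Of this sum miR-424-5p alone held 122748, 36311 and 86267 CPM in vehicle 7, 9 and 11. In gonadotropin 8, 10 and 12 it held 31436, 62380 and 43070 CPM.

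The fibrosis-linked and TGF-beta-linked list, which shares miR-21, miR-143 and miR-145 with the stromal list, had 7 of 14 rows higher and 7 lower (median -0.01), again with 0 called by the edgeR quasi-likelihood test and 0 at an unadjusted p under 0.05. miR-29a-3p, a repressor of collagen genes, averaged 10716 ± 5310 CPM with vehicle and 6655 ± 558 CPM with gonadotropin (SD, n = 3 each). The groups were apart for miR-29a-3p with lower values in gonadotropin, as for 4.39% of all tested rows. Its log2 fold change was -0.69 (SE 0.35), and that of miR-29c-3p, with overlap, was -1.19 (SE 0.62). Both rested on vehicle 7: without that library the values were -0.19 and -0.16. Of the dynamin-locus names, miR-3120 and miR-638 had no row among the counted miRNAs, and miR-3154, at 2 to 10 counts a library, was too low to test.

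Other cell types that a piece of testis holds varied between libraries as well. The 7 tested blood marker rows, led by miR-451 of red cells, summed to 5138 to 11066 CPM in vehicle and 7909 to 9148 CPM in gonadotropin. Of the 7 rows 6 had higher values (median 0.43), where 46% of all tested miRNA rows lay above 0 (median -0.06). Both arms of miR-142 are among the 6. The log2 fold change of miR-451 was 0.03, and that of miR-144, the lower row, was -0.09. miR-223, of myeloid cells, averaged 798 ± 218 CPM with vehicle and 1331 ± 284 CPM with gonadotropin (SD, n = 3 each; 0.74, SE 0.35) and was not called by the edgeR quasi-likelihood test. For miR-223 and miR-142-5p the groups were apart with higher values in gonadotropin, as for 6.93% of all tested miRNA rows. miR-126 of endothelium had a log2 fold change of 0.33 (SE 0.33), which was 0.06 without gonadotropin 8 and 0.68 without vehicle 9. No list had a called row, and the part of these cells in the member levels was not tested.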

How the data were processed

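The authors deposited raw counts per mature miRNA (miRDeep2 on rheMac2) and raw counts per small RNA gene (HTSeq on rheMac8), per the labels. The tools cutadapt 1.9.1, Bowtie 1.1.2 and, for counting genes, HTSeq 0.6.1p1 are named in the submitters' processing notes, together with edgeR. How multi-mapping reads and strand were handled is not given in the sources used here. Also deposited by the authors were CPM, log2 fold changes, p-values and their adjusted values of an edgeR exact test; the log2 fold changes and adjusted p-values are quoted where named and nothing else rests on them.

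Groups came from the titles. Each table was filtered (filterByExpr, minimum count 10), scaled by TMM and fitted as a whole with the edgeR 4.0.16 quasi-likelihood test (robust, R 4.3.3) for the treatment contrast, with Benjamini-Hochberg adjustment over all tested rows and a threshold of 0.05. This kept 433 of 701 and 717 of 3083 rows, with a biological coefficient of variation of 35.1 and 46.2%. A standard error is the absolute log2 fold change over the square root of F, and the 95% intervals rest on it. Arm ratios used counts plus 0.5. DESeq2 1.42.0, limma 3.58.1 (voom), other scalings, no filter, age terms and each library left out were alternatives. The scripts were tested on simulated counts. The members, lists and tests were chosen with earlier results of these data known. Genes were named by rule: all members, the 3 list rows with the smallest p, the most abundant of each list, and the 3 nearest rows by pattern for miR-199a-3p and miR-214-3p. For cell type lists only the rows in the text are named. Counts are reads, without molecular identifiers. miRNA sequences were not used here.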

Additional observations from a re-analysis of the deposited data

How the results depend on the processing

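With 3 animals a group, no member passed the threshold in any of 13 alternatives, and 95 of 104 values over the 8 arms and genes kept their direction. These 8 are not separate measurements. The genes are another count of the same libraries, and the miR-199a genes had nearly equal counts. Library totals moved the median of all miRNA rows from -0.06 to 0.19 and upper-quartile scaling to -0.15. Relative to that median miR-199a-3p stayed at 0.01, 0.004 and -0.01 and miR-214-5p at 0.50, 0.48 and 0.46 (TMM, library totals, upper quartile). The sign of miR-199a-3p turned with library totals (0.20), and that of miR-214-3p with upper-quartile scaling (-0.053). Leaving out each library in turn gave log2 fold changes of -0.19 to 0.11 for miR-199a-3p, -0.08 to 0.32 for miR-199a-5p, -0.17 to 0.55 for miR-214-3p, 0.29 to 0.75 for miR-214-5p and -0.05 to 0.28 for MIR199B. The arm balance of miR-199a ran from -0.12 to 0.42. Signs turned for miR-199a-3p without vehicle 9 (0.11) and gonadotropin 8 (0.04), for miR-199a-5p without gonadotropin 8 (-0.084), for miR-214-3p without vehicle 7 (-0.03), vehicle 11 (-0.05) and gonadotropin 10 (-0.17), and for MIR199B without gonadotropin 10 (-0.051). The cause was not tested. The values of other named miRNAs without a library were added after seeing the data.

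The count of called miRNA rows, 1 by the edgeR quasi-likelihood test, was 2 with library totals, 3 with DESeq2, 0 with limma voom, 0 with age as a covariate, 0 with animals paired by age, and 0 to 4 without a library. Of the small RNA genes 1 was called, 3 with DESeq2, 0 with limma voom, 3 with no filter, 0 with animals paired by age, and 0 to 1 without a library. Animals were paired by age only as an alternative, since the groups share no replicate numbers. With this pairing the log2 fold changes were -0.05 for miR-199a-3p, 0.15 for miR-199a-5p, 0.13 for miR-214-3p and 0.47 for miR-214-5p.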

Other observations

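miR-214-3p and the mir-214 gene were highest in vehicle 9 and gonadotropin 10, which came from the animals aged 14 months, a pattern noticed after the values were seen. The level was 9776 and 9030 CPM for miR-214-3p, where the other 4 libraries lay between 4632 and 6440 CPM, and 6431 and 8092 CPM for the gene, where the others lay between 3745 and 5055 CPM. miR-199a-3p was also highest in these libraries, at 27522 and 27381 CPM against 20486 to 24899 CPM. The other members did not share the pattern. miR-199a-5p was highest in gonadotropin 8 (20534 CPM), and gonadotropin 10 held 12906 CPM. For miR-214-5p vehicle 9 (1956 CPM) lay below gonadotropin 8 (2062 CPM). Among the genes, vehicle 9 lay below vehicle 7 for mir-199a-1 (19816 and 20752 CPM), mir-199a-2 and MIR199B (15383 and 17420 CPM). The animals aged 15 months, vehicle 11 and gonadotropin 12, were at 4632 and 5487 CPM for miR-214-3p, close to those aged 24 and 22 months at 5403 and 6440 CPM. With 1 animal of each group at 14 months this was not tested.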
